A study of Homo sapiens with 2 samples.

Results

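Transcription regulators were examined in HT-29, an epithelial cell line from a human colon adenocarcinoma, after RNA interference against GPR126. The gene, now called ADGRG6, encodes a receptor of the adhesion class that couples to G proteins. They were chosen by annotation, with earlier results of these data known: rows of the deposited table whose gene ontology process holds the text "regulation of transcription, DNA-dependent", also inside the longer terms for positive or negative regulation. It is carried by 115 of the 2007 genes listed there. Genes also annotated to DNA repair or replication, DNA damage, mitosis, cell division, RNA splicing or the nucleolus were left out, as were ZNF, RNF, TRIM and USP symbols and 18 named genes such as MYC and ATF4. That left 68 genes. One library came from cells labelled as the GPR126 knockdown (6010192 reads) and 1 from cells labelled scramble (5753320 reads). The labels name no second culture or hairpin, so every difference below is between 2 libraries with no replicate check, and no test or p-value is given.

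Transcription regulators act in layers. Sequence-specific factors such as homeobox, forkhead and leucine zipper proteins bind short DNA motifs, cofactors and chromatin enzymes are brought in by them, and general factors place the polymerase at the start site. In the gut epithelium, such factors separate dividing crypt cells from differentiated cells. The annotated group is wider than its name. Of its 68 genes, 40 have "transcription factor activity" in the deposited gene function terms and 49 have a DNA binding term, whereas 19 have neither. Those 19 include a respiratory chain subunit, a phosphodiesterase and signalling scaffolds.

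The table limits what can be said. It holds genes the authors called different, with an absolute log2 ratio of at least 1 and an FDR of at most 0.001, so an unlisted regulator may be unchanged, weakly expressed or not supplied. GPR126 had 2 reads in the knockdown library, against 68 in the scramble library. None of 10 colon epithelial marker genes was listed, so the labelled cell type could not be checked, and of 6 markers of other cell types COL1A1 was listed, with 227 knockdown and 83 scramble reads; its part in the results was not tested. RPM, below, is reads per 1e6 reads of the library total with no correction for gene length, so levels are compared between libraries and not between genes. Folds are given with 95% counting intervals, which hold nothing of the variation between cultures.

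Some of the stronger differences are introduced with the reference sequence before each start site. Promoters in the RefSeq table (GRCh38.p14) matched 53 of the 68 genes. FOXM1, E2F8, HOXB9, HOXB6 and ETS1 were not matched and are not shown, though their ratios were stronger than some of those below. The 3 highest and 3 lowest ratios among those whose higher library holds at least 100 reads are shown, as the 250 bases before the annotated start, 5′ to 3′ on the gene's strand. Capitals mark matches, on either strand, to the motifs searched: the TATA box (TATAAA), the CCAAT box (CCAAT), the GC box (GGGCGG), the ETS core (CCGGAA), the cAMP response element (TGACGTC), the AP-1 site (TGANTCA), the E-box (CACGTG), the NRF1 element (GCGCATG), the C/EBP-ATF element (TTGCATC), the E2F core (TTCCCGC) and the heat shock element (TTCTAGA). FHL2 (chr2:105438514-105438763, minus strand), SATB1 (chr3:18445593-18445842, minus strand) and TSC22D3 (chrX:107775989-107776238, minus strand) were higher in the knockdown library. PDE8A (chr15:84980217-84980466, plus strand), CBX3 (chr7:26201193-26201442, plus strand) and RPS6KA4 (chr11:64358912-64359161, plus strand) were lower.
FHL2: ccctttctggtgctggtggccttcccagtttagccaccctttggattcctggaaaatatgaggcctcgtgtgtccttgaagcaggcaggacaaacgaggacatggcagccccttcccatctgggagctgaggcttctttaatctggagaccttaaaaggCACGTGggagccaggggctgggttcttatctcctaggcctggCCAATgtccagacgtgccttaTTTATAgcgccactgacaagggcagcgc
SATB1: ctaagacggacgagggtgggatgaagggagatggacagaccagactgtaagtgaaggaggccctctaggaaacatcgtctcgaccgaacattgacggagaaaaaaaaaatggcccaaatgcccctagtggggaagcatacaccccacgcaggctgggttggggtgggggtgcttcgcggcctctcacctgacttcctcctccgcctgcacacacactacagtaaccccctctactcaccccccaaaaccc
TSC22D3: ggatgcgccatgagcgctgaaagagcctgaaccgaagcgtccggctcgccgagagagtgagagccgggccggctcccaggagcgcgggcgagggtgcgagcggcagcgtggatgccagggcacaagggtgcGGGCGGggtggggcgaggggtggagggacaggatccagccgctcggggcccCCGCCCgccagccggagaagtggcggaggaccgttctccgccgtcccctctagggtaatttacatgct
PDE8A: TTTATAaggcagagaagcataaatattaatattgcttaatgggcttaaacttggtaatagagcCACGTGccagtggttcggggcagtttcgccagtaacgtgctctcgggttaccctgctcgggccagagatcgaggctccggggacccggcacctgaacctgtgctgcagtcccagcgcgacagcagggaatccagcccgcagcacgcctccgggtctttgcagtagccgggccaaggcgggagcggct
CBX3: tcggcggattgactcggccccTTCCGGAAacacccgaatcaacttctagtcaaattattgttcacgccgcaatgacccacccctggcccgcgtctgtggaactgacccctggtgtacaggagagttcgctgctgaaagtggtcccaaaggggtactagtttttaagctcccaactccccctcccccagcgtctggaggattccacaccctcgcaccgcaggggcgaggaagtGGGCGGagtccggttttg
RPS6KA4: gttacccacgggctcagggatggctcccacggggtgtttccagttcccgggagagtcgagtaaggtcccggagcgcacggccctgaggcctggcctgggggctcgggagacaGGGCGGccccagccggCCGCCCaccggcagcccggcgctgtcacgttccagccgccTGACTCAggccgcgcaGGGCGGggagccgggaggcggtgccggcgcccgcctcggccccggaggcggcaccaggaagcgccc

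These windows differ in make-up. FHL2 holds a TATA match beginning 28 bases before the start, a CCAAT match at 49 and an E-box at 91. Its TATA match lies on the opposite strand, reading TTTATA on the gene's strand. SATB1 holds none of the 11 motifs, TSC22D3 has 2 GC boxes, and RPS6KA4 has 3 GC boxes and an AP-1 match. CBX3 has overlapping ETS matches at 229 and 227 bases before the start and a GC box at 18. PDE8A has a TATA match only at the far end, 250 bases before the start and also on the opposite strand, and an E-box. A match describes letters and not a bound site.

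Of the 68 regulators 39 were higher and 29 lower in the knockdown library. By size, 38 were at least 2-fold higher (55.9%), beside 32.9% of all 2007 listed genes, and 28 were at least 2-fold lower (41.2%), beside 66.4% of all listed genes. HES1 and NFATC2IP lay just short of 2-fold once 0.5 reads were added to each count. The median log2 ratio of the group was 1.14, against -1.16 for all listed genes; since the table holds almost nothing between -1 and 1, these medians mainly state which direction held the majority. No test of the difference between the group and the other genes was made. The 47 genes with the same process term that were left out had 21 higher and 26 lower members, so that all 115 with the term had 60 higher (52.2%) and 55 lower. The split depends on scaling. Recentring the ratios, so that the listed genes have a median of 0, moves every ratio up by 1.16. On this recentred scale 39 regulators were 2-fold higher and 1 was 2-fold lower, against 668 and 112 of all listed genes. That median comes from selected genes, most of them lower, so recentring could take no gene off the higher side. The recentred values thus describe the shift and are no independent check of direction. The 36 listed ZNF zinc finger genes, the nearest comparable family, had 19 higher and 17 lower members.

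**Figure D1:**
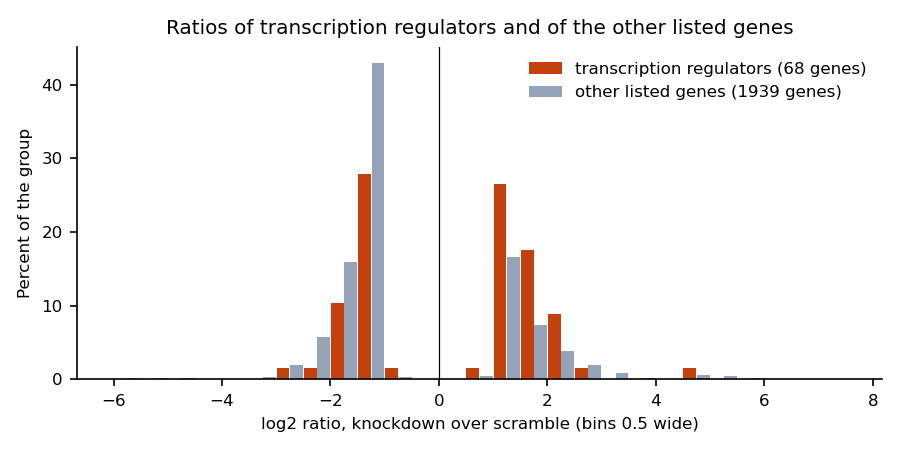
Distribution of the log2 ratio of knockdown over scramble (x axis, bins of 0.5) as a percent of each group (y axis) for the 68 transcription regulators and the 1939 other listed genes. The bin from 1.0 to 1.5 holds 26.5% of the regulators and 16.6% of the others, and the bin from -1.5 to -1.0 holds 27.9% and 43.0%.

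Sizes differed less than directions. The higher regulators had a median log2 ratio of 1.51 and all higher listed genes 1.46, and the lower regulators a median of -1.40 beside -1.36 for all lower listed genes. At least 4-fold differences were found for 8 higher regulators (8.27% of all listed genes were that much higher) and 2 lower ones (8.17% of all listed genes). Intervals wholly past 2-fold were seen for 19 higher regulators (16.4% of listed genes) and 10 lower ones (33.1% of listed genes). Read numbers were modest: the higher regulators had a median of 109 knockdown and 37 scramble reads, and the lower ones a median of 56 knockdown and 148 scramble reads.

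The split can be set out by function term, beside 33.3% higher and 66.7% lower among all listed genes. Among the 40 genes with a transcription factor activity term 28 were higher and 12 lower, and among the 28 without it 11 were higher (39.3%) and 17 lower (60.7%), which is near the share of all listed genes. Among the 49 with a DNA binding term 31 were higher and 18 lower. The 75 listed genes that carry the same function term but are outside the group had 34 higher and 41 lower members. These splits were drawn after values were known and are descriptions.

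**Figure D2:**
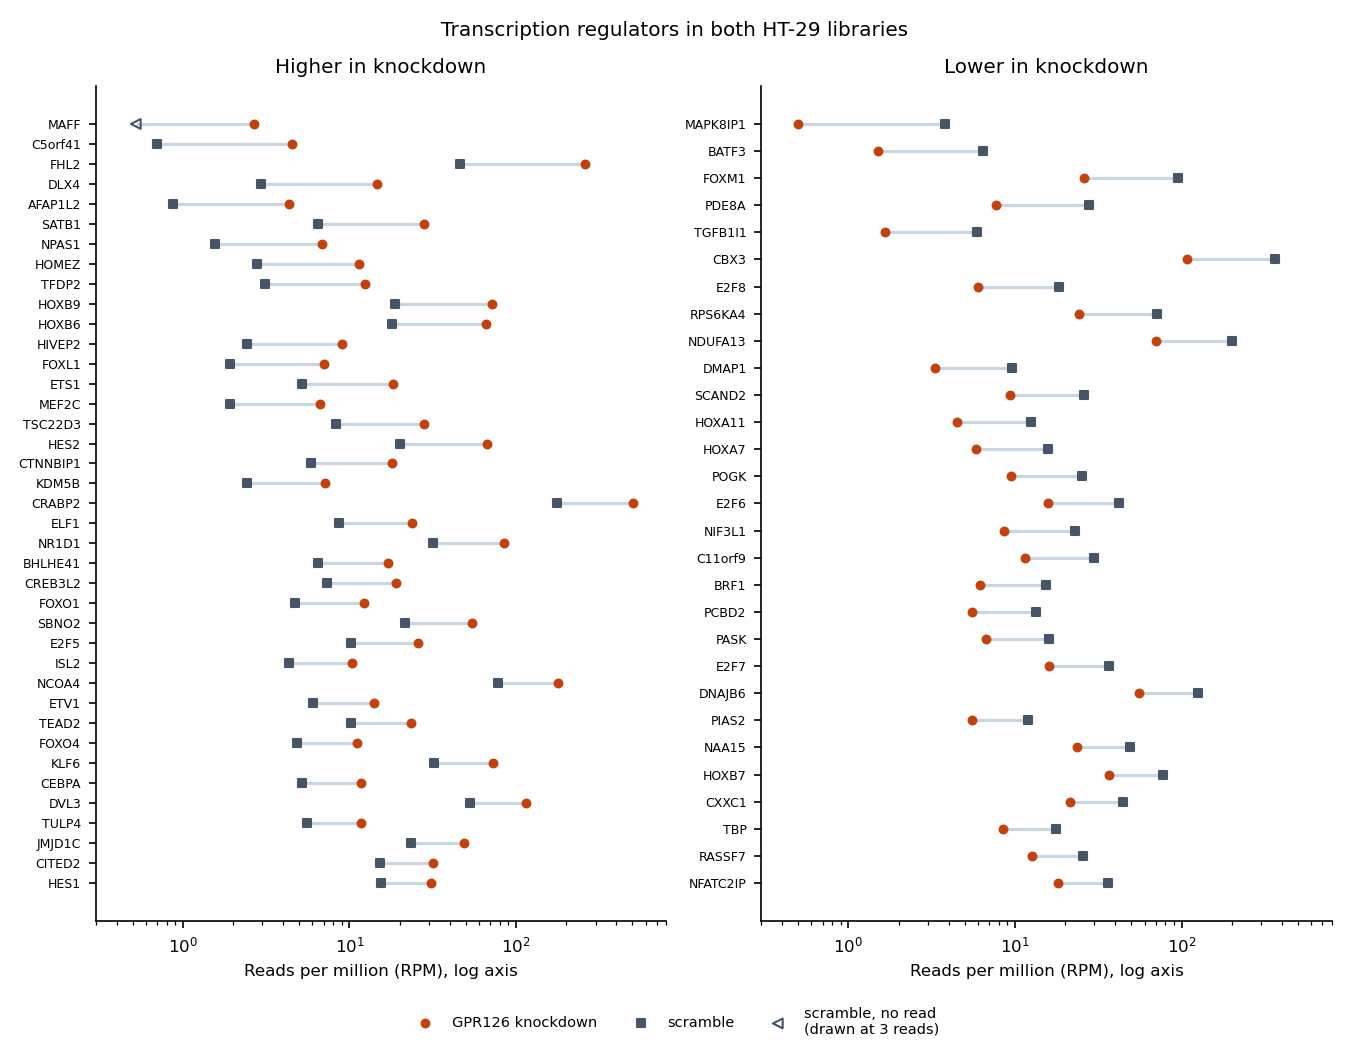
Reads per 1e6 reads of the library (RPM, x axis, log scale) of each of the 68 transcription regulators in the GPR126 knockdown library (circles) and the scramble library (squares), 1 library each; the open triangle marks MAFF, which had no scramble read and is drawn at 3 reads. Genes are ordered by ratio, with 39 higher on the left and 29 lower on the right, and CRABP2 has the most knockdown reads and CBX3 the most scramble reads.

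Homeobox genes, which encode factors of body axis and cell identity, were divided. Of the 9 in the group 6 were higher and 3 lower. DLX4, a distal-less factor, had 88 knockdown and 17 scramble reads (4.96-fold higher, 2.93 to 8.89). SATB1, which organises chromatin loops, had 169 knockdown and 37 scramble reads (4.37-fold higher, 3.05 to 6.42), and HOMEZ, a homeobox and leucine zipper protein, had 69 and 16 (4.13-fold higher, 2.37 to 7.62). ISL2, a LIM homeobox factor known from motor neurons, had 62 knockdown and 25 scramble reads. These 4 were all higher, and only ISL2 had an interval that reached below 2-fold (1.47 to 3.94).

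The HOX genes followed no common direction. HOXB9 had 429 reads (71.4 RPM) in the knockdown library, against 108 reads (18.8 RPM) in the scramble library, and was 3.80-fold higher (3.07 to 4.74). HOXB6 had 397 knockdown reads (66.1 RPM) and 104 scramble reads (18.1 RPM) and was 3.65-fold higher (2.94 to 4.58). HOXB7, which lies beside HOXB6 in the RefSeq gene order, had 221 knockdown reads (36.8 RPM) and 444 scramble reads (77.2 RPM); it was 2.10-fold lower (1.78 to 2.48), at 0.09 on the recentred log2 scale. Neighbours in 1 cluster thus had opposite ratios under scaling to the library total, and HOXB8, between HOXB7 and HOXB9, was not listed. From the HOXA cluster HOXA11 had 27 knockdown and 72 scramble reads (2.79-fold lower, 1.77 to 4.51), and HOXA7 had 35 and 91 (2.72-fold lower, 1.82 to 4.13). HOXB6 and HOXA7 overlap antisense RNA genes in RefSeq, and no source says whether reads were counted by strand. The same limit holds for other members with such overlaps, among them SATB1, ETS1, CREB3L2 and MEF2C. Across the wider list of 134 homeobox genes 13 were listed, 9 higher and 4 lower. Those outside the group include HOXC6 (69 knockdown and 28 scramble reads) and MEIS2 (71 and 30), both higher, and CUX1 (44 and 95), lower with a log2 ratio of -0.01 on the recentred scale.

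Genes on the basic leucine zipper list, whose typical members bind DNA as dimers, were mostly higher: 5 of the 6 in the group. MAFF, a small Maf protein without an activation domain, had 16 knockdown reads and none in the scramble library. It was 5.11-fold higher with the scramble count set to a floor of 3 reads. The lower limit of its counting interval is smaller, at 3.69-fold. C5orf41 (now CREBRF), a regulator of the CREB3 factor, had 27 knockdown and 4 scramble reads (6.46-fold higher, 2.25 to 25.4). These 2 rest on few reads. TSC22D3, the glucocorticoid-induced leucine zipper, had 169 knockdown reads (28.1 RPM) and 48 scramble reads (8.34 RPM) and was 3.37-fold higher (2.43 to 4.75). CREB3L2, a factor tethered in the endoplasmic reticulum membrane, had 115 knockdown and 42 scramble reads (2.62-fold higher, 1.83 to 3.83). CEBPA, a differentiation factor of liver, fat and myeloid cells, had 71 knockdown and 30 scramble reads (2.27-fold higher, 1.46 to 3.60). BATF3, a partner of JUN proteins, was the exception, with 9 knockdown and 37 scramble reads (4.29-fold lower, 2.04 to 10.1). Of 57 genes in the leucine zipper list 9 were listed, 8 of them higher. That list leaves out JUN, JUNB, ATF3, ATF4 and DDIT3, which were excluded by name. Those listed outside the group were JUND (366 knockdown and 162 scramble reads), CEBPG (510 and 204) and DBP (93 and 29), all higher.

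All 4 helix-loop-helix regulators in the group were higher. HES2, a hairy-type repressor, had 402 knockdown reads (66.9 RPM) and 116 scramble reads (20.2 RPM) and was 3.32-fold higher (2.69 to 4.11). HES1, the Notch target repressor, had 186 knockdown and 89 scramble reads, with an interval of 1.55 to 2.61. NPAS1, a PAS domain factor, had 41 knockdown and 9 scramble reads (4.36-fold higher, 2.09 to 10.2). BHLHE41, a repressor of the circadian clock, had 102 knockdown and 37 scramble reads (2.64-fold higher, 1.80 to 3.96). Of the 70 genes in the wider list, which leaves out MYC, 9 were listed, 8 higher and 1 lower. ID1, an inhibitor of helix-loop-helix dimers, had 2749 knockdown and 1266 scramble reads and ID3 had 212 and 98, and the MAX partners MXD1 (94 and 37) and MXD4 (215 and 65) were likewise higher. The lower one was SREBF2, with 88 knockdown and 189 scramble reads close to 0 on the recentred scale.

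The E2F family separated by member. E2F6, E2F7 and E2F8 are known as repressors that work without the retinoblastoma protein, and all 3 were lower. E2F8 had 36 knockdown and 105 scramble reads (3.05-fold lower, 2.07 to 4.58). E2F6 had 95 knockdown and 241 scramble reads (2.65-fold lower, 2.08 to 3.40). E2F7 had 96 knockdown and 210 scramble reads (2.29-fold lower, 1.79 to 2.94), with a log2 ratio of -0.03 on the recentred scale. The other members were higher. E2F5, a partner of the pocket proteins in resting cells, had 154 knockdown and 59 scramble reads (2.50-fold higher, 1.84 to 3.43), and the dimer partner TFDP2 had 75 and 18 (3.99-fold higher, 2.36 to 7.09). Its paralog TFDP1, outside the group, went the other way with 226 knockdown and 580 scramble reads (2.68-fold lower, 2.30 to 3.14). The E2F, DP and pocket protein list of 25 genes leaves out E2F2. Of these 25, 9 were listed and 7 of them were lower. The 7 include MYBL2 and DNMT1, which are not E2F or DP genes, and DNMT1 is also on the deacetylase and corepressor list. The lower ones include the activator E2F1 (98 knockdown and 224 scramble reads, a log2 ratio of -0.09 on the recentred scale) and MYBL2 (67 and 265).

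Forkhead factors showed the same kind of division. FOXM1, an activator of genes for entry into mitosis, had 157 reads (26.1 RPM) in the knockdown library, against 551 reads (95.8 RPM) in the scramble library, and was 3.67-fold lower (3.07 to 4.41). FOXO1 and FOXO4, factors that insulin and AKT signalling keeps out of the nucleus, were higher. FOXO1 had 73 knockdown and 27 scramble reads (2.59-fold higher, 1.64 to 4.19), and FOXO4 had 67 and 28 (2.29-fold higher, 1.45 to 3.70). FOXL1, known in mouse gut from cells beneath the epithelium, had 42 knockdown and 11 scramble reads (3.65-fold higher, 1.85 to 7.87). No other gene of the 39 in the forkhead list was listed. FOXM1 stayed below 0 on the recentred scale, at -0.71.

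**Figure D3:**
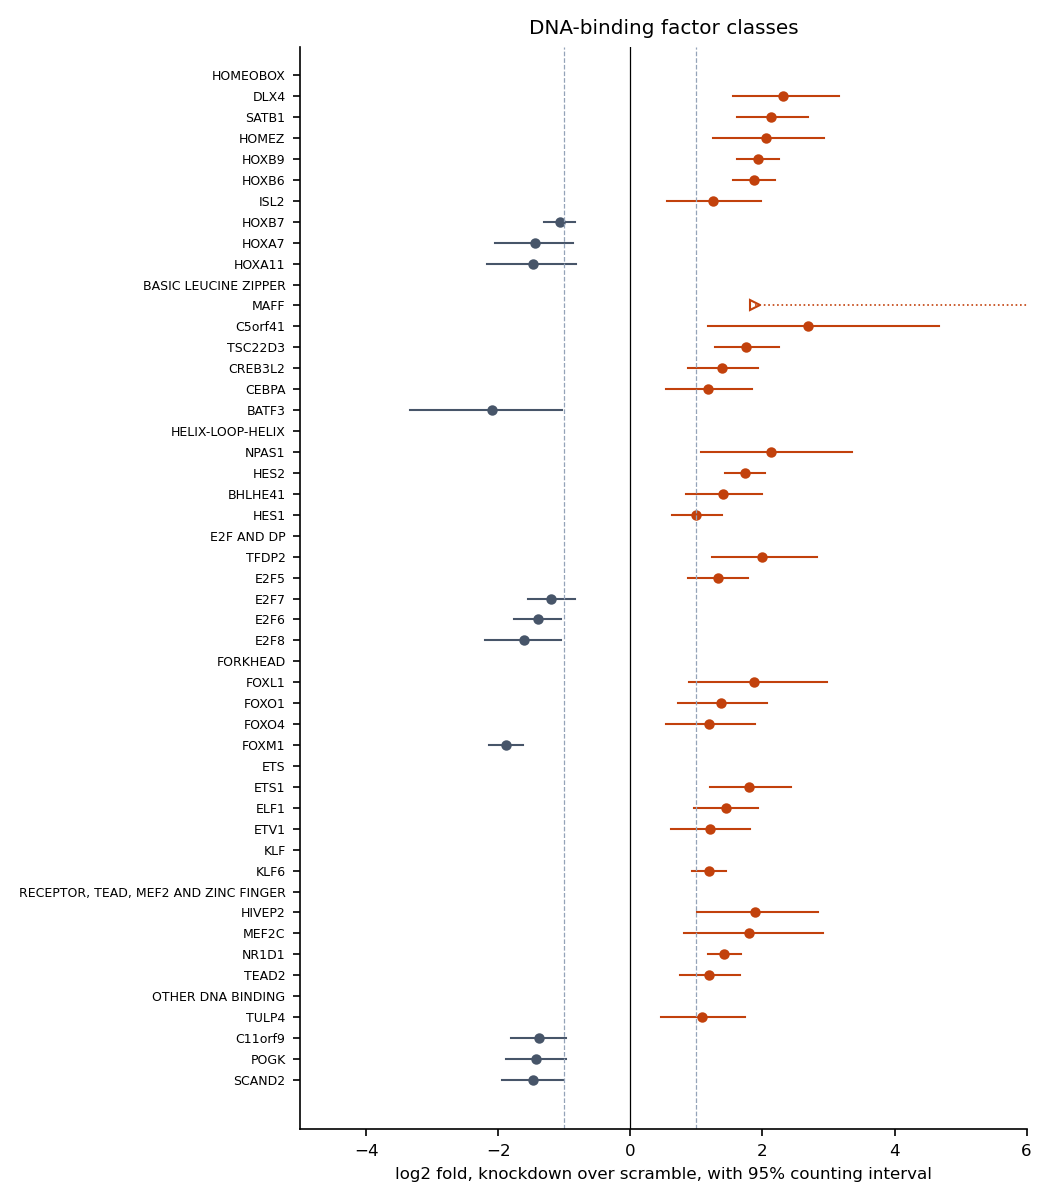
Log2 fold of knockdown over scramble (x axis) for the 40 regulators in DNA-binding classes drawn up after the values were seen, with 95% counting intervals as bars; dashed lines mark 2-fold, and the open arrow marks the lower interval limit of MAFF, whose scramble count is 0. Of the 40, 29 are higher and 11 lower, with every helix-loop-helix and ETS member on the higher side and the E2F, forkhead and homeobox classes on both.

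The 3 ETS factors and the 1 KLF factor in the group were higher. ETS1 had 109 knockdown and 30 scramble reads (3.48-fold higher, 2.30 to 5.40). ELF1 had 142 knockdown and 50 scramble reads (2.72-fold higher, 1.96 to 3.83), and ETV1 had 84 and 35 (2.30-fold higher, 1.53 to 3.51). Nothing else in the ETS list of 29, which leaves out ELF3, was listed. KLF6, a zinc finger factor of the KLF family, had 440 knockdown and 185 scramble reads (2.28-fold higher, 1.91 to 2.72). The 4 other listed genes of the 33 in the KLF and SP list were higher too: KLF3 (485 knockdown and 195 scramble reads), KLF2 (148 and 61), KLF4, a factor of differentiated gut epithelium (95 and 42), and KLF9 (95 and 30).

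Further DNA-binding members were NR1D1, TEAD2, MEF2C and HIVEP2, all higher. NR1D1 (REV-ERB alpha), a heme-binding nuclear receptor that represses clock genes, had 511 knockdown reads (85.0 RPM) and 183 scramble reads (31.8 RPM) and was 2.67-fold higher (2.25 to 3.18); it overlaps THRA in RefSeq, which was not listed. TEAD2, a DNA-binding partner of YAP, had 141 knockdown and 59 scramble reads (2.29-fold higher, 1.68 to 3.16). MEF2C, known from muscle and neurons, had 40 knockdown and 11 scramble reads (3.48-fold higher, 1.75 to 7.52), and the large zinc finger protein HIVEP2 had 54 and 14 (3.69-fold higher, 2.02 to 7.20). The remaining 4 were mostly lower. C11orf9 (now MYRF), a membrane-bound factor known from myelinating glia, had 69 knockdown and 172 scramble reads (2.60-fold lower, 1.96 to 3.50). POGK had 57 knockdown and 146 scramble reads, and SCAND2, which RefSeq lists as the transcribed pseudogene SCAND2P, had 56 and 149. TULP4, with 71 knockdown and 32 scramble reads, was higher (2.12-fold, 1.38 to 3.33).

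Of the 28 members outside these classes 10 were higher (35.7%) and 18 lower, near the 33.3% and 66.7% of all listed genes. The classes were drawn up after the values were seen, and they leave out some genes with a DNA binding term. Of these, TBP, BRF1, CXXC1, DMAP1, PIAS2, DNAJB6 and RASSF7 were lower, and KDM5B and CITED2 were higher. By the DNA binding term itself, 31 of 49 genes were higher and 18 lower, a less uneven split than that of the classes. Among chromatin proteins, CBX3 (HP1 gamma), which reads methylated histone H3, had 652 reads (108 RPM) in the knockdown library, against 2101 reads (365 RPM) in the scramble library, and was 3.37-fold lower (3.08 to 3.68). It has processed pseudogenes, and no source says how reads that match several copies were treated. DMAP1, a subunit of the TIP60 acetyltransferase complex, had 20 knockdown and 55 scramble reads (2.87-fold lower, 1.69 to 5.06). CXXC1, which binds unmethylated CpG and belongs to the SET1 methyltransferase complexes, had 129 knockdown and 255 scramble reads (2.07-fold lower, 1.66 to 2.57), with a log2 ratio of 0.12 on the recentred scale. The jumonji proteins were higher: KDM5B, a demethylase of histone H3, had 43 knockdown and 14 scramble reads (2.94-fold, 1.58 to 5.82), and JMJD1C had 292 and 135 (2.07-fold, 1.68 to 2.56). KDM6B, the remaining listed one of 22 demethylase genes, was higher with 97 and 22 reads.

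Of 10 cofactors of signalling pathways and nuclear receptors 7 were higher and 3 lower, 2 of the 3 above 0 on the recentred scale. FHL2, a LIM-only cofactor of nuclear and cytoskeletal proteins, had 1549 reads (258 RPM) in the knockdown library, against 265 reads (46.1 RPM) in the scramble library, and was 5.60-fold higher (4.91 to 6.40). This was the highest ratio among members whose higher library holds at least 100 reads. CRABP2, which delivers retinoic acid to its nuclear receptor, had 3009 knockdown reads (501 RPM) and 1010 scramble reads (176 RPM) and was 2.85-fold higher (2.65 to 3.07). NCOA4, a nuclear receptor coactivator that also carries ferritin to lysosomes, had 1076 knockdown and 449 scramble reads (2.29-fold higher, 2.05 to 2.57). CITED2, a partner of CBP and p300 that limits HIF1A, had 191 knockdown and 88 scramble reads (2.08-fold higher, 1.61 to 2.71). In the Wnt pathway CTNNBIP1, which blocks beta-catenin from binding TCF, had 108 knockdown and 34 scramble reads (3.04-fold higher, 2.05 to 4.61), and DVL3, a Dishevelled transducer, had 686 and 303 (2.17-fold higher, 1.89 to 2.49). An inhibitor and a transducer of the same pathway were therefore both higher. SBNO2 had 329 knockdown and 124 scramble reads (2.54-fold higher, 2.06 to 3.15). TGFB1I1 (HIC-5), a LIM protein of focal adhesions, was lower, with 10 knockdown and 34 scramble reads (3.55-fold, 1.72 to 8.06). The SUMO ligase PIAS2 (33 and 69) and NFATC2IP (109 and 209) were about 2-fold lower, but their log2 ratios became 0.04 and 0.16 on the recentred scale.

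General factors were few. TBP, the TATA-binding protein, had 51 knockdown and 101 scramble reads (2.07-fold lower, 1.46 to 2.96), with a log2 ratio of 0.12 on the recentred scale. BRF1, a subunit of the TFIIIB factor of RNA polymerase III, had 37 knockdown and 88 scramble reads (2.48-fold lower, 1.67 to 3.75); it overlaps the listed gene BTBD6, which was also lower (49 and 127). Of the 42 initiation factor genes 8 were listed, 3 higher and 5 lower, 2 of these 5 above 0 when recentred. GTF2A2 (121 knockdown and 344 scramble reads), GTF2E2 (148 and 324), GTF2E1 (28 and 61) and TAF2 (146 and 310) were lower with TBP. On the recentred scale TAF2 turned to a log2 ratio of 0.01, GTF2E1 stood at -0.01, GTF2E2 at -0.03 and GTF2A2 at -0.41. By contrast, TAF15 (687 and 320), TAF7 (241 and 111) and TAF5L (45 and 14) were higher.

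The 11 remaining members, mostly enzymes and scaffolds, were lower but for 1, and 2 of the 10 lower ones lay above 0 on the recentred scale. NDUFA13, a complex I subunit also described as a repressor of STAT3, had 424 knockdown reads (70.6 RPM) and 1161 scramble reads (202 RPM) and was 2.86-fold lower (2.56 to 3.20). PDE8A, a phosphodiesterase that breaks down cAMP, had 46 knockdown reads (7.65 RPM) and 159 scramble reads (27.6 RPM) and was 3.61-fold lower (2.59 to 5.13). RPS6KA4 (MSK2), a kinase of CREB and histone H3, had 146 knockdown and 409 scramble reads (2.93-fold lower, 2.42 to 3.56). The co-chaperone DNAJB6 had 333 knockdown and 721 scramble reads (2.26-fold lower, 1.98 to 2.58) and a log2 ratio of -0.02 on the recentred scale. NIF3L1 (52 and 131), PASK, a PAS domain kinase (40 and 92), and PCBD2, a dimerization cofactor of HNF1 (33 and 77), were between 2.40-fold and 2.63-fold lower. MAPK8IP1, the JNK scaffold JIP1, had 3 knockdown and 22 scramble reads, a ratio of 7.66-fold lower with a wide interval of 2.30 to 40.0. NAA15, an N-terminal acetyltransferase subunit (141 and 284), and RASSF7 (76 and 148) were about 2-fold lower and reached log2 ratios of 0.09 and 0.14 on the recentred scale. The SRC-binding adaptor AFAP1L2, with 26 knockdown and 5 scramble reads (4.98-fold, 1.88 to 16.6), was the 1 higher member here.

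Gene lists of the wider transcription apparatus set these members in context. The 26 lists hold 1236 genes, of which 159 were listed, 74 higher and 85 lower, with a median log2 ratio of -1.03; 48 of them are among the 68. They leave out most of the 18 genes excluded by name, among them MYC, E2F2, JUN, ATF3, ATF4, DDIT3 and ELF3. Their counts are read beside the 66.7% of all listed genes that were lower. All 10 listed genes of the 60 chromatin remodeller genes were lower, 3 of them above 0 on the recentred scale. Of 9 listed histone methyltransferase and reader genes 8 were lower, CBX3 and CXXC1 among them, 2 of the 8 above 0 when recentred. Of 8 listed deacetylase and corepressor genes 7 were lower, 1 of them above 0 when recentred, and of 10 listed RNA polymerase subunit and Pol I and III factor genes 8 were lower, BRF1 among them, again with 1 above 0 when recentred. Nuclear receptor coregulators had 4 higher and 7 lower genes, nuclear receptors 1 and 2, Polycomb genes 1 and 2, Mediator genes 3 and 4, and the mixed list of NF-Y, RFX, NFI, TEAD and other factors 3 and 6. The BTB zinc finger and HMG-box lists each had 2 higher and 3 lower genes, the STAT, IRF and NF-kB list 1 and 3, the SMAD-linked list 1 and 1, and the Notch and Wnt list 2 and 2. Histone demethylases had 3 higher genes and no lower one, histone acetyltransferase partners had 4 higher and 2 lower genes and elongation factors 2 and 1. Of these lower genes, 1 coregulator and 2 each of the Mediator, mixed, BTB and STAT lists lay above 0 when recentred. None of the 12 genes in the circadian feedback list, of which 10 matched RefSeq, was among the listed genes; that list does not hold the clock repressors BHLHE41 and NR1D1, both higher here.

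**Figure D4:**
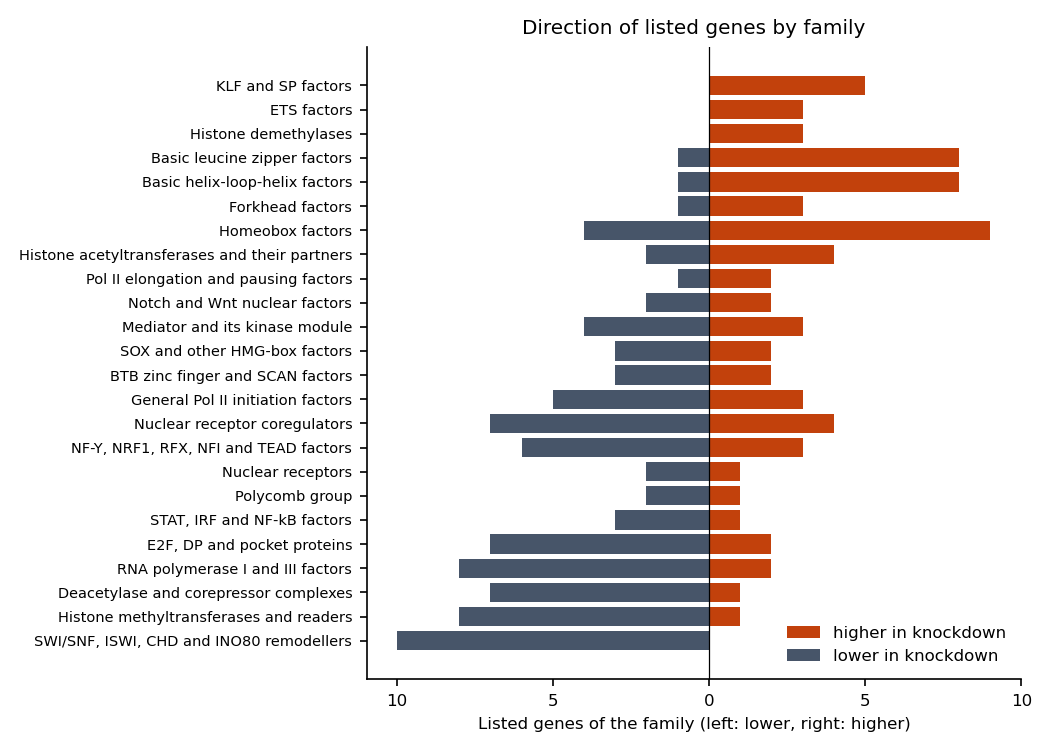
Number of listed genes higher (right) or lower (left) in the knockdown library for each family list with at least 3 listed genes (x axis, number of genes), ratios scaled to the library total. KLF, ETS and histone demethylase genes lie on the higher side, with 5, 3 and 3 genes, and all 10 chromatin remodeller genes lie on the lower side.

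Promoter letters were compared over the 53 genes with a RefSeq promoter, 32 higher and 21 lower, which the choice of genes did not use. A GC box was present in 75.0% of the higher and 71.4% of the lower members, beside 68.3% of the promoters of all listed genes and 42.3% of all 27305 promoters. The ETS core was found in 4 of 32 higher members (12.5%) and 9 of 21 lower members (42.9%), beside 14.8% of all promoters and 28.2% of the promoters of all listed genes. Lower members with it include CBX3, TBP, DMAP1 and E2F7. The E-box was found in 6 of 32 higher members (18.8%), among them FHL2, KLF6 and BHLHE41, and in 1 of 21 lower members (4.76%), beside 9.75% of listed genes and 6.49% of all promoters. Both contrasts depend on the window. With the 50 bases after the start included, a window added after the data were seen, the E-box was in 18.8% of the higher and 23.8% of the lower members, so its direction turned, and the ETS core was in 21.9% and 42.9%. CCAAT was in 43.8% of higher and 33.3% of lower members, beside 36.4% of listed genes and 33.0% of all promoters. Shares of the 53 members were close to those of listed genes for the TATA box (5.66%, beside 5.55%), the cAMP response element (5.66%, beside 5.36%), the NRF1 element (7.55%, beside 5.97%) and the E2F core (11.3%, beside 10.4%). The AP-1 site was in 5.66% of members and 3.23% of listed genes; each of these 5 motifs occurred in at most 6 of the 53. The C/EBP-ATF and heat shock motifs matched none, beside 1.28% of listed genes for each. Median GC content was 66.6% for higher members, 62.0% for lower members, 64.8% for all listed genes and 58.0% for all promoters. These shares are descriptions without a test, and their relation to GC content was not tested.

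**Figure D5:**
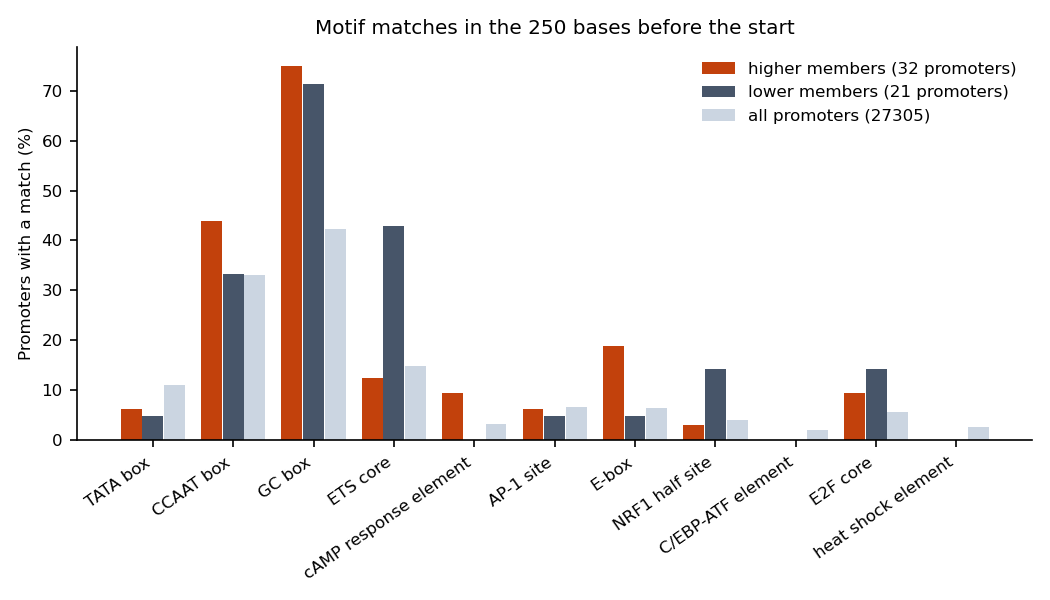
Percent of promoters (y axis) with at least 1 match to each of 11 motifs (x axis) in the 250 bases before the start, on either strand, for 32 higher members, 21 lower members and all 27305 promoters in the table. The ETS core stands at 12.5%, 42.9% and 14.8% in these groups, and the GC box at 75.0%, 71.4% and 42.3%; promoters of all listed genes, not drawn, stand at 28.2% and 68.3%.

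In RefSeq, 39 of the 68 genes overlap another annotated gene on either strand, 23 of the higher and 16 of the lower ones. BRF1 is the only one whose overlapping partner is itself listed. Together the 68 took 14848 reads in the knockdown library and 12185 reads in the scramble library, which is 2470 and 2120 per 1e6 reads of the library total. As a share of the reads of listed genes this is 2.16% and 1.34%. Listed genes held 11.5% of the knockdown and 15.8% of the scramble reads. A few abundant genes weigh heavily in the sums of the 68. CRABP2 (501 knockdown and 176 scramble RPM) and FHL2 (258 and 46.1 RPM) were higher, and CBX3 (108 and 365 RPM) was lower. The sums therefore give no direction for the group as a whole.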

How the data were processed

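RNA sequencing of HT-29 cells gave 1 library labelled GPR126 knockdown and 1 labelled scramble. The authors deposited a whole-number read count per gene and library. They also deposited a column headed TPM, which equals the count divided by 1 library total times 1e6 within 0.005 and is therefore an RPM value; a count of 0 was entered as 0.01. The deposited log2 ratio, p-value and FDR were read from the authors' table; the p-values compare 2 libraries and were not used. The file headers and labels name no aligner, counter, annotation or genome build. Gene positions without a chromosome were not used.

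Library totals were recovered from counts and RPM. The log2 ratio adds 0.5 reads to each count and scales to the total; folds use counts alone, with 95% limits by the Clopper-Pearson method (exact, given the gene's total over both libraries), which cover counting error only. Against a count of 0 the fold is computed with 3 counts in that library, and the interval can reach below it. The interval was checked on counts simulated with counting error alone. That check held no variation between cultures and no selection of genes for a difference, so it covers neither. All 68 Entrez identifiers matched RefSeq (GRCh38.p14), 3 under another symbol. Members, 26 family lists and 11 motifs were chosen with earlier results of these data known. Named by rule were members in a family list, the 12 highest and 12 lowest ratios with at least 100 reads, the 5 most abundant per library and GPR126, 59 members in all; the other 9, and genes outside the 68 named within their lists, were chosen after their values were seen, as were the DNA-binding classes. Alternatives covered pseudocount, floor, scaling, limit, the member rule and the promoter window. The software was scipy 1.17.1, pandas 2.3.3 and numpy 2.4.6 in Python 3.11.15, with figures drawn in matplotlib 3.10.9.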

Additional observations from a re-analysis of the deposited data

How the results depend on the processing

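No paired analysis was possible because there is a single library for knockdown and for scramble, and none could be left out. Pseudocounts of 0.05 or 5 reads and a floor of 5 RPM left both counts within 1.5 times and the median within 0.1, and every member inside its counting interval under both pseudocounts. Setting the median of the listed ratios to 0 left 39 higher and 1 lower at 2-fold with a median of 2.30, and upper quartile scaling 39 and 6 with a median of 1.85; both are computed from selected genes, most of them lower, and move every ratio up by 1.16 or 0.71, so no higher gene could reverse. Under the median scaling 7 lower members reversed: NFATC2IP to 0.16, RASSF7 to 0.14, TBP and CXXC1 to 0.12, HOXB7 and NAA15 to 0.09 and PIAS2 to 0.04. Taking the exact gene ontology term left 50 genes, 30 higher and 18 lower, with a median of 1.19. A 4-fold limit left 8 higher and 2 lower, and an interval wholly beyond 2-fold 19 and 10; fewer genes pass by construction. Depth limits MAFF, C5orf41, AFAP1L2, NPAS1, BATF3, TGFB1I1 and MAPK8IP1, each with fewer than 11 reads in 1 library. The 300-base promoter window, added after the data were seen, left all 33 motif shares of members within the exact 95% binomial interval of the 250-base value, though the E-box contrast turned. That window contains the 250 bases, and the intervals are wide. The E-box share of lower members went from 4.76% to 23.8% within its interval. The check therefore says little about how stable the shares are.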
